A study of Mus musculus with 8 samples.

Results

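Mesendoderm is the early tissue that gives rise to mesoderm and endoderm, and 10 genes that direct or mark it were followed here through chromatin. They were T, Eomes, Mixl1, Gsc, Foxa2, Sox17, Mesp1, Evx1, Hhex and Cxcr4, chosen by name, and all 10 were found among 21883 protein-coding genes. For each gene, peaks in the gene or within 50 kb of it were collected from 4 peak lists made by chromatin immunoprecipitation followed by sequencing (ChIP-seq). The lists mapped histone H3 carrying acetyl groups (H3ac), found at promoters and enhancers in use, on days 2, 4 and 6, and the histone deacetylase HDAC1 on day 2. The cells came from embryonic stem cells of mouse strain 129/Ola in every group and were differentiated on gelatin in serum-free N2B27, a medium that favours neural fates. The HDAC1 antibody recognised a FLAG tag, so that list shows tagged HDAC1. Each target and day had 1 ChIP and 1 input library, 8 libraries in all, with no replicates. No difference between days or targets could therefore be tested, and read depth is unknown.

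In the embryo, Nodal, Wnt and BMP signals switch on T and Eomes, T-box transcription factors of the primitive streak. Mixl1, Gsc and Evx1 are homeobox genes of the streak, Mesp1 a basic helix-loop-helix gene of early cardiac and cranial mesoderm, and Foxa2, Sox17 and Hhex act in endoderm. Cxcr4 encodes a chemokine receptor used to sort definitive endoderm, but it is also expressed by neural, blood and endothelial cells. Neural differentiation proceeds when Nodal, Wnt and BMP signals stay low.

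Peaks at these loci were counted first, and the shares of all genes are given further below. In all, 14 peaks were listed in or within 50 kb of the 10 genes, 13 of H3ac and 1 of HDAC1. A total of 6 lay at a gene end, meaning within 1 kb of either end of the regulator gene, 0 lay deeper inside a gene, and 8 were distal, meaning outside the gene and farther than 1 kb. Of the 8 distal peaks, 6 lay at the end of another protein-coding gene, and 2 lay outside protein-coding genes. The share of all distal peaks at another gene's end is not given, here or for peaks beyond 50 kb. The gene-end peaks belonged to Cxcr4, Hhex, Evx1 and Mesp1.

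The promoters of 3 genes with a peak near the start are shown beside that of T, which had no peak within 50 kb. Each is the 250 bases before the gene start, 5′ to 3′ on the gene's strand, from RefSeq in build GRCm38.p6, the same assembly coordinates as mm10. CpG dinucleotides are in capitals, because CpG-rich promoters carried H3ac more often across the genome.
Cxcr4, chr1:128592300-128592549, minus strand: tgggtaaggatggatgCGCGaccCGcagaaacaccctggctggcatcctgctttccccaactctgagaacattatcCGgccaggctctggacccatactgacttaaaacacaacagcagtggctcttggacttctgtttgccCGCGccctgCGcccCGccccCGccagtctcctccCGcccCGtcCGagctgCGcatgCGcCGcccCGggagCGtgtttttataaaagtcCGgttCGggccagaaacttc
Hhex, chr19:37434591-37434840, plus strand: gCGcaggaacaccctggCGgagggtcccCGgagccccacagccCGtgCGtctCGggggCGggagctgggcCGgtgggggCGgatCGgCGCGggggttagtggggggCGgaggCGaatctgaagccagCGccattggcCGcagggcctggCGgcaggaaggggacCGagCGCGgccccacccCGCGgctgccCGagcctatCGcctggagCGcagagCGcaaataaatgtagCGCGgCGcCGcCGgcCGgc
Mesp1, chr7:79793591-79793840, minus strand: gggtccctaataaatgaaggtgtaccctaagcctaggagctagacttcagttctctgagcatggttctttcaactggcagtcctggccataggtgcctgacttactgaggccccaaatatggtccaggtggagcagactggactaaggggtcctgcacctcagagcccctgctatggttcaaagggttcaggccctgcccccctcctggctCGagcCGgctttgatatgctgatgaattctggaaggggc
T, chr17:8434173-8434422, plus strand: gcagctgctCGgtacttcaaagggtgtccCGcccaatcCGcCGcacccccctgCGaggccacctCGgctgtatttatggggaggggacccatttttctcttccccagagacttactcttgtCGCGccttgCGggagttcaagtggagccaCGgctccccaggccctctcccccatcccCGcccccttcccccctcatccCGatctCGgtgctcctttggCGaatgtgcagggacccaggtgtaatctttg
These stretches held 19 CpGs in Cxcr4, 32 in Hhex, 14 in T and 2 in Mesp1. The day 6 H3ac peak of Cxcr4 covered all 250 bases of its stretch. The day 4 peak of Hhex covered the first 25 bases of its own, and no listed peak touched those of Mesp1 and T.

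**Figure D1:**
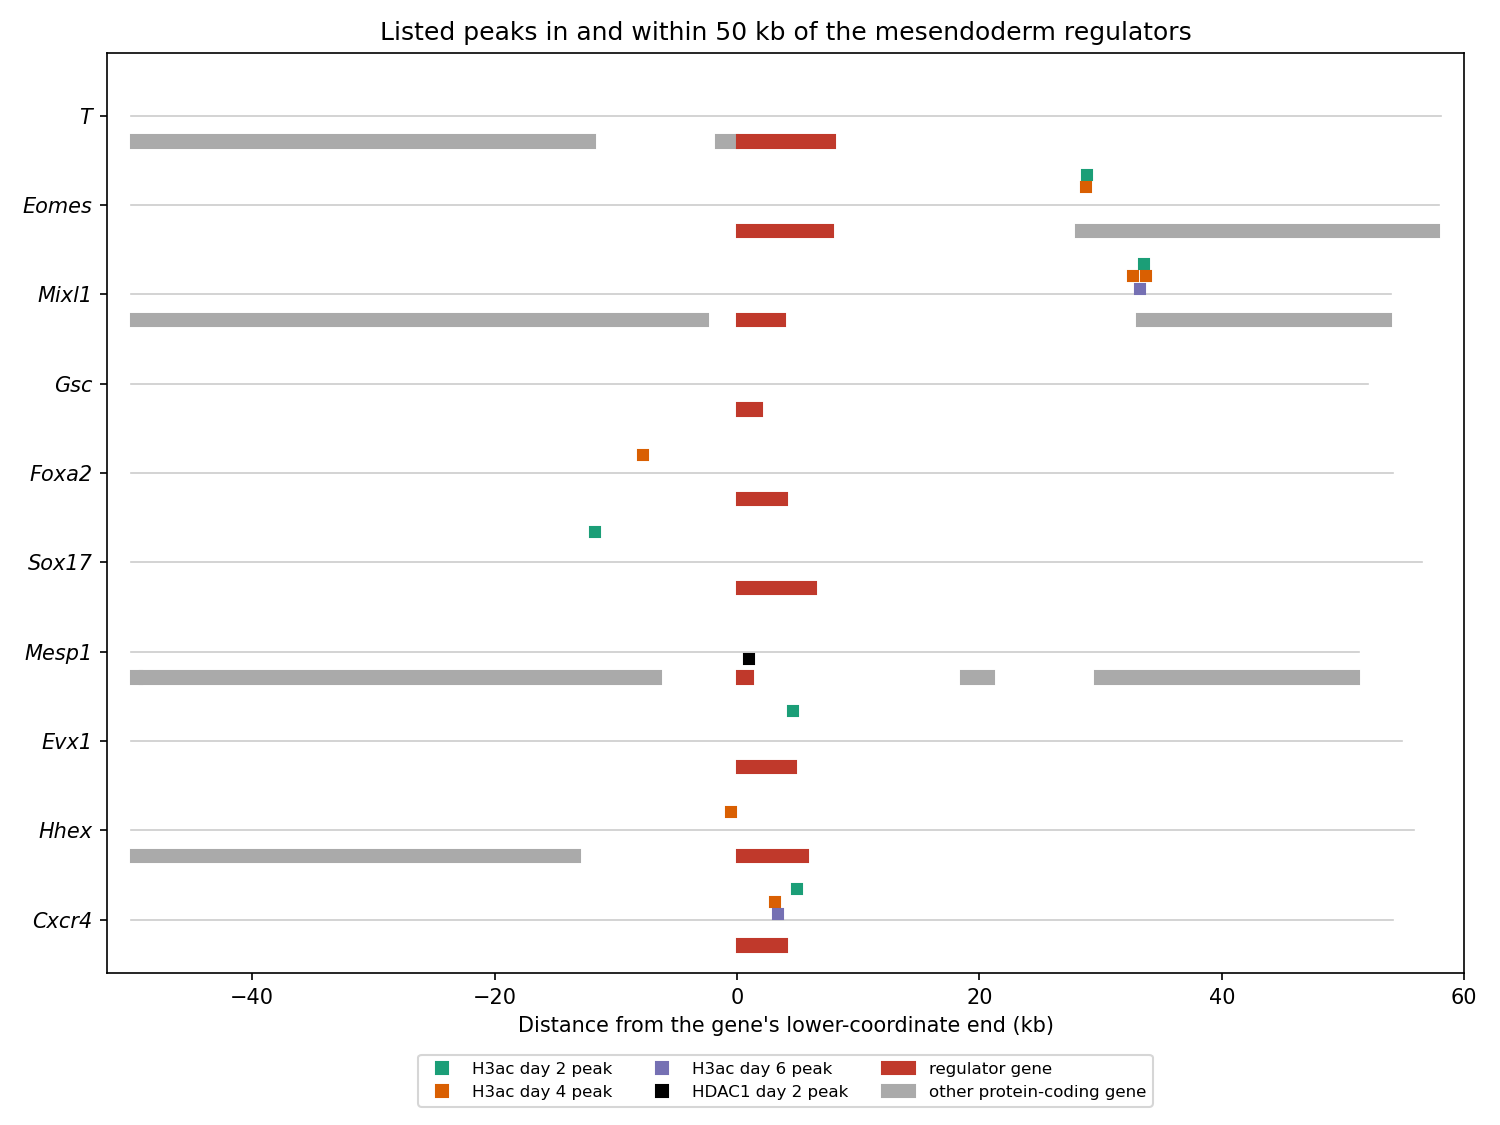
Position of each listed peak (squares, at the peak's midpoint and not drawn to its width) along the 10 regulator genes, in kb from the gene's lower-coordinate end, with other protein-coding genes in grey. T and Gsc show none of the 14 peaks, and the squares near Eomes and Mixl1 sit at the end of a neighbouring gene.

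Cxcr4 was the only one of the 10 with a gene-end H3ac peak on all 3 days. It had none of HDAC1, and 14.7% of all genes shared that pattern. With gene ends of 0.5 kb its day 2 peak no longer counted. The gene lies on chromosome 1 from 128588199 to 128592299 on the minus strand, with no other protein-coding gene within 50 kb. On day 2 the peak lay upstream of the start, from 617 to 1149 bp before it (chromosome 1, 128592916 to 128593448), and its score of 62.17 exceeded that of 29.1% of the list. On day 4 a peak of 1697 bp lay inside the gene, from 82 to 1778 bp after the start, with a score of 454.63 and rank 440 of 12945. On day 6 a peak of 3936 bp spanned the start, from 1266 bp before it to 2669 bp after it, with a score of 100.73 and rank 3341 of 5553. The peaks of days 2 and 4 did not overlap and lay 699 bp apart, and both fell wholly within the day 6 peak. Scores are the authors' values and rank peaks within a list, so they cannot be compared between days. Day 6 peaks were wide throughout, with a median of 1898 bp against 591 bp on day 2 and 792 bp on day 4. No HDAC1 peak lay within 50 kb of Cxcr4, and the nearest was 719 kb away.

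Hhex, a homeobox gene of anterior endoderm on chromosome 19 from 37434841 to 37440731, had a gene-end peak on day 4 alone. The peak of 498 bp (37434118 to 37434615) ended 226 bp before the start, and its score of 67.01 exceeded that of 28.3% of the list. On days 2 and 6 the nearest H3ac peaks were 57.3 and 56.2 kb away, at an end of Kif11, which encodes a mitotic kinesin. The Kif11 end was also listed on day 4, with a score of 412.32.

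Evx1, on chromosome 6 from 52313498 to 52318389, had a gene-end peak on day 2 alone, and it lay at the 3′ end of the gene. It measured 348 bp (52317973 to 52318320) and started 4475 bp after the gene start. Its score of 51.35, rank 16878 of 17368, was just above the list's lowest score of 50. A peak at the far end only is rare: 1.49% of 17491 protein-coding genes with a known strand had one on day 2, against 39.7% with one within 1 kb of the start. Evx1 lies beside the HoxA cluster, and its nearest day 4 peak, 91.3 kb away, was at an end of Hoxa9.

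Mesp1, on chromosome 7 from 79792241 to 79793590, had the only HDAC1 peak of the 10 loci and no H3ac peak within 50 kb on any day. The HDAC1 peak of 284 bp (79793046 to 79793329) lay inside the gene, from 261 to 544 bp after the start. Because the gene is 1350 bp long, the peak was within 1 kb of both ends. Its score of 59.05 had rank 3375 of 5286. HDAC1 marked an end of 2057 genes, and 265 of them (12.9%) likewise lacked H3ac at their ends on all days. The nearest H3ac peaks to Mesp1 were 54 kb away on day 2, at an end of Anpep, 76.6 kb on day 4, at an end of Kif7, and 231 kb on day 6.

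**Figure D2:**
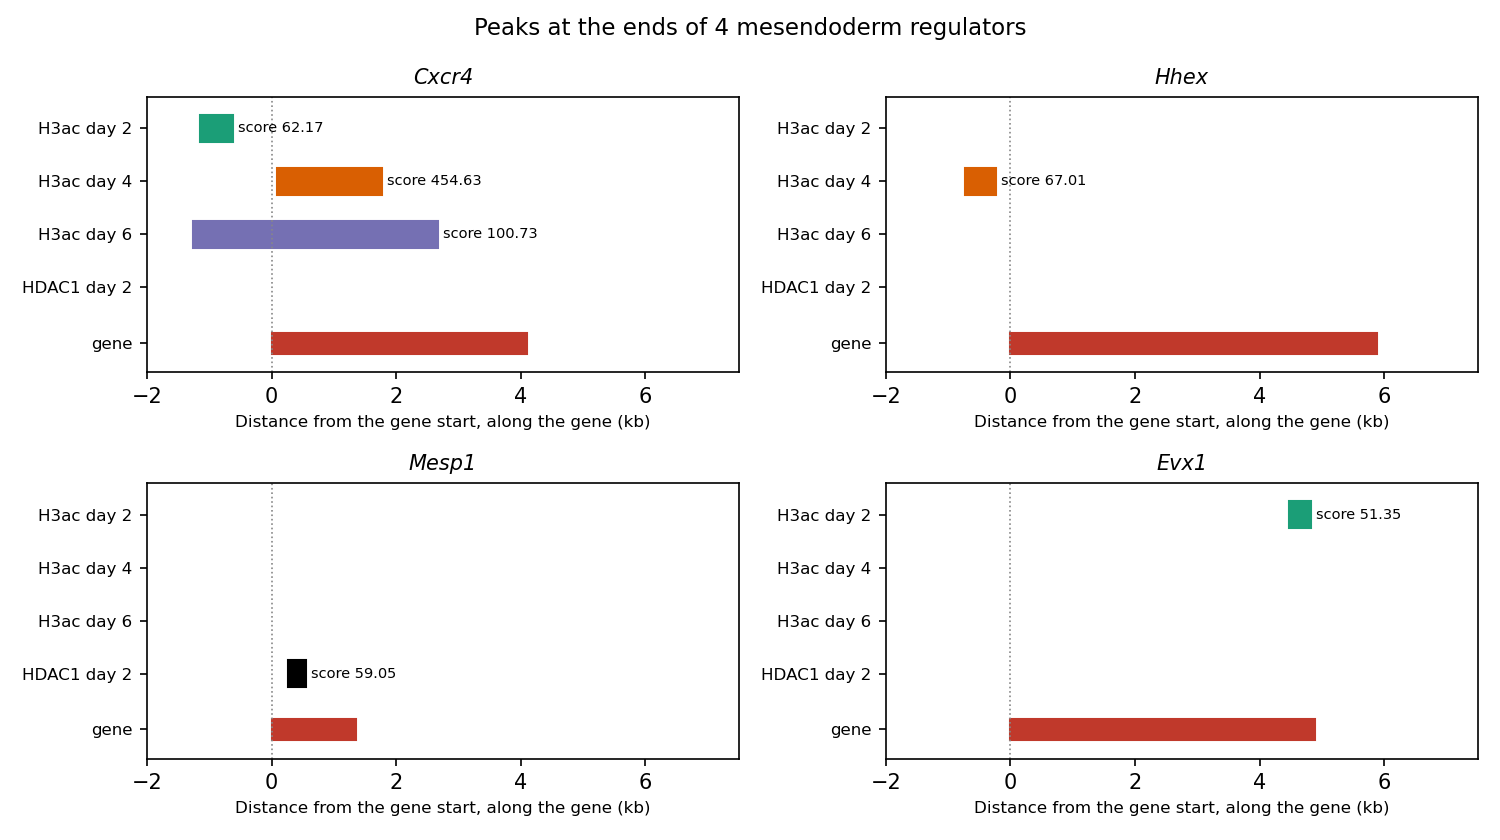
Extent of every gene-end peak of Cxcr4, Hhex, Mesp1 and Evx1 in kb from the gene start along the gene, drawn to scale with 1 lane per peak list and the authors' score beside each peak. Only Cxcr4 has a bar on all 3 H3ac days, the Evx1 bar lies at the far end of the gene, and the Mesp1 bar is the only one of HDAC1.

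At the other 6 genes (T, Eomes, Mixl1, Gsc, Foxa2 and Sox17) neither end was marked in any list, and the same held for 51.1% of all protein-coding genes. T (chromosome 17, 8434423 to 8442496) and Gsc (chromosome 12, 104471209 to 104473236) had no peak within 50 kb either. The nearest H3ac peaks to T were 123 kb away on day 2, 61.6 kb on day 4, inside T2, and 358 kb on day 6. Those nearest Gsc were 277 to 278 kb away on each day, at an end of Dicer1, which encodes a microRNA-processing enzyme.

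The 2 distal peaks outside protein-coding genes lay near Foxa2 and Sox17. Foxa2 (chromosome 2, 148042877 to 148046969, minus strand) had a day 4 H3ac peak at 148034859 to 148035354, 7523 bp beyond its 3′ end and inside the noncoding gene 9030622O22Rik. It scored 53.14, above 7.69% of the list. Sox17 (chromosome 1, 4490928 to 4497426) had a day 2 H3ac peak of 522 bp at 4478918 to 4479439, 11489 bp from the gene, with a score of 69.43, above 39.5% of the list. Neither peak overlapped a peak of another list, and both genes lacked any other peak within 50 kb.

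At Eomes and Mixl1 all distal peaks coincided with a neighbour's end. Eomes (chromosome 9, 118478186 to 118486132) had peaks on days 2 and 4, 20706 and 20360 bp away, both at an end of Golga4, which encodes a Golgi protein. The first lay wholly within the second, and the scores were 58.19 and 109.00. Mixl1 (chromosome 1, 180693043 to 180697034) had 1 peak each on days 2 and 6 and 2 on day 4, all at an end of Acbd3, another gene of the Golgi, and between 27965 and 29326 bp from Mixl1. The day 6 peak, of score 148.60, covered the day 2 peak (73.45) and both day 4 peaks (93.84 and 191.79). Which gene such a peak serves cannot be read from the lists.

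Between 50 and 100 kb from the genes a further 25 peaks were listed, of which 13 lay at an end of another protein-coding gene. Mixl1 had most of those outside protein-coding genes: 3 peaks of day 2 and 4 of day 4, between 70.9 and 96.8 kb away, and an HDAC1 peak 65 kb away. Foxa2 had 1 on day 2, 66.2 kb away with a score of 51.54, and Eomes had 1 on day 2, 80.7 kb away with a score of 56.00.

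Of the 14 peaks, 10 scored below their list's median, some of them close to it, and 4 scored above it. A median leaves as many peaks of a list below it as above. The 4 were the day 4 peak of Cxcr4, the day 4 peak near Eomes, the stronger day 4 peak near Mixl1 and the day 6 peak near Mixl1. Of these, Cxcr4 on day 4 was the only one not at another gene's end. In total 9 of the 14 peaks overlapped a peak of another H3ac day, all at Cxcr4, Eomes or Mixl1. Those of Hhex, Evx1, Mesp1, Foxa2 and Sox17 were each listed once. The share of all listed peaks that overlap another day is not given, so this split has no background beside it.

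Set beside all genes, the regulators had the lower share of gene-end H3ac peaks on each day and a like share of HDAC1 peaks. On day 2, 2 of 10 (Evx1 and Cxcr4) were marked by H3ac at an end, while among all genes the share was 40.6%. On day 4 it was 2 of 10 (Hhex and Cxcr4) against 38%, and on day 6 1 of 10 (Cxcr4) against 23.3%. For HDAC1 it was 1 of 10 (Mesp1) against 9.4%, which is near the background. Counting any peak in the gene or within 50 kb, H3ac gave 5 of 10 on day 2 (68.3% of all genes), 5 on day 4 (65.6%) and 2 on day 6 (47.4%), and HDAC1 gave 1 (39.4%). Distal peaks alone were near 3 of 10 on day 2 (56.2%), 3 on day 4 (51.1%), 1 on day 6 (33.2%) and 0 for HDAC1 (30.1%). With 10 genes, these counts describe the set and were not tested. When the 5286 top-scoring peaks of each list were used, 0 regulators were marked at an end by H3ac on day 2 (22.3% of all genes), and Cxcr4 alone on day 4 (22.8%) and on day 6 (22.4%), so the smaller count of the last day was lost. Distal peaks were then near 0 regulators on day 2 (34.7%) and near Mixl1 alone on day 4 (34.3%) and on day 6 (32.1%). Without peaks at another gene's end, distal peaks were left near 1 regulator on day 2 (34.9%), 1 on day 4 (22.3%) and 0 on day 6 (5.97%).

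**Figure D3:**
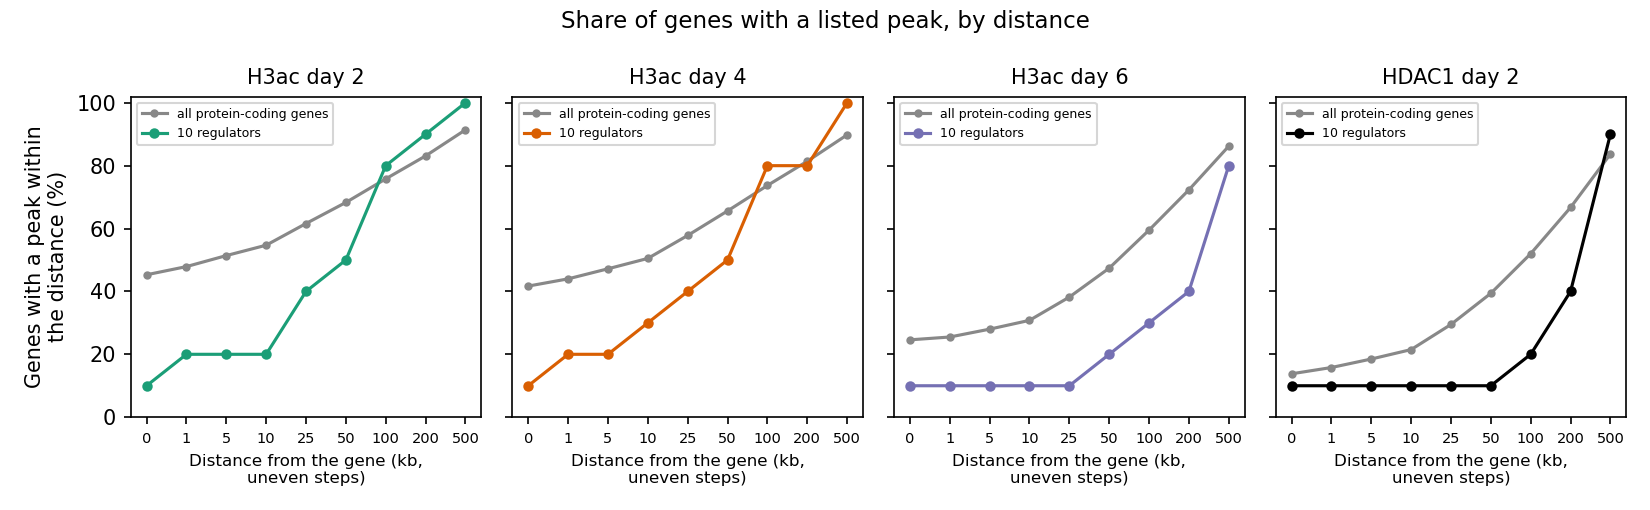
Share of genes (%) with a listed peak within a given distance (kb, uneven steps) for the 10 regulators (coloured) and all protein-coding genes (grey), 1 panel per list. At 10 kb the regulators stand at 20% on day 2 against 54.7% of all genes, and by 100 kb at 80% against 75.8%.

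On days 2 and 4 the gap to all genes closed with distance. At 100 kb the regulators stood near all genes, at 80% against 75.8% on day 2 and against 73.7% on day 4. At 200 kb they stood at 90% against 83.1% on day 2 and at 80% against 81.4% on day 4. On day 6 they stood at 40% against 72.3% at 200 kb. By 500 kb the day 6 share was 80% against 86.2%, near that of all genes. Within 10 kb of the gene an H3ac peak was listed on day 2 for 2 regulators (54.7% of all genes), on day 4 for 3 (50.5%) and on day 6 for 1 (30.8%). Within 100 kb the numbers were 8 (75.8%), 8 (73.7%) and 3 (59.5%). The median distance from a regulator to the nearest H3ac peak was 41.7 kb on day 2, 44.9 kb on day 4 and 254 kb on day 6, against 3.41, 9.28 and 58.2 kb for all protein-coding genes. For HDAC1 it was 221 kb against 90.9 kb.

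The regulators were short genes, and many lay in regions with few genes. Their median length was 4496.5 bp against 17170 bp for all genes, and 5 of them (Gsc, Foxa2, Sox17, Evx1 and Cxcr4) had no other protein-coding gene within 50 kb, as had 11.3% of all genes. Among all 2483 such isolated genes, 35.3% had a day 2 H3ac peak in the gene or within 50 kb, 33.1% a day 4 peak and 19% a day 6 peak. Of the 5 isolated regulators, 3 had one on day 2 (Sox17, Evx1 and Cxcr4), 2 on day 4 (Foxa2 and Cxcr4) and 1 on day 6 (Cxcr4). At gene ends 2, 1 and 1 of them were marked, against 23.4%, 23.8% and 15.7% of isolated genes. The part of gene spacing and length in the lower counts was not tested.

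Promoter sequence and strand were used for 8 of the 10, without Mixl1 and Sox17. Within 1 kb of the start, H3ac was listed for 1 of these 8 on day 2 (39.7% of all genes with strand), for 2 on day 4 (37.4%) and for 1 on day 6 (22.8%), and HDAC1 for 1 (8.87%). Over windows of 300 bases around the start, 4 (T, Gsc, Hhex and Cxcr4) were rich in GC and CpG, meaning at least 55% GC and a CpG observed-to-expected ratio of at least 0.6, as were 41.3% of 17491 promoters. Hhex had 75.7% GC, the highest of the 8, and a ratio of 0.88. Of all 7218 rich promoters, 66.8% carried H3ac within 1 kb of the start on day 2, 64.1% did on day 4 and 39.9% on day 6, and 14.9% carried HDAC1. Of the 4 rich regulators, H3ac lay there at Cxcr4 on day 2, at Hhex and Cxcr4 on day 4, and at Cxcr4 on day 6, and HDAC1 at none. T (61.7% GC, ratio 0.61) and Gsc (60.3%, 0.93) were CpG-rich with no start peak on any day. The other promoters, of Eomes, Foxa2, Mesp1 and Evx1, had no H3ac peak at the start, against 20.6%, 18.7% and 10.9% of promoters outside the rich class on days 2, 4 and 6. Mesp1 had the lowest ratio, 0.17, and of promoters outside the rich class 4.62% had an HDAC1 peak within 1 kb of the start.

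Motifs of the factors that act on these genes were searched on both strands of the same windows. AATCCACA, bound by the Nodal effector FOXH1, was in 0 of the 8 promoters and in 0.772% of all promoters. AGGTGTGA, a T-box site, was in 1 of 8, in Mesp1 just after its start, and in 1.17% of all. CTTTGAT, a TCF/LEF site of Wnt signalling, was in 1 of 8, again Mesp1, beginning 31 bases before the start in the stretch printed above, and in 3.28% of all. Only these exact sequences were searched, so other forms of the same sites were not counted, in Mesp1, T or any other promoter. A match is a description of the sequence and not evidence of binding.

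The signals upstream of these genes carried gene-end H3ac at higher shares than the regulators, a difference that was not tested. A list of 16 genes of Nodal, Wnt and BMP signalling was read beside all genes. H3ac marked an end of 12 on day 2 (40.6% of all genes), 10 on day 4 (38%) and 8 on day 6 (23.3%). HDAC1 marked an end of 0 (9.4%). Acvr1b and Acvr2b, which encode activin receptors, Foxh1, Smad4 and Ctnnb1, which encodes beta-catenin, shared the pattern of Cxcr4, with H3ac on every day and no HDAC1, as did 14.7% of all genes. The ligand genes Nodal and Gdf3 had a gene-end peak on day 2 only, the pattern of Evx1, seen in 6.1% of all genes. Furin, which encodes a protease that processes Nodal, was the only gene of both lists with the pattern of Hhex, day 4 alone (3.74% of all genes). Its peak, of score 65.25, lay at the far end of the gene. Bmp4 was not marked at an end in any list.

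A list of 28 other mesendoderm genes was read in the same way. H3ac marked an end of 6 on day 2 (40.6% of all genes), 1 on day 4 (38%) and 1 on day 6 (23.3%). HDAC1 marked an end of 0 (9.4%). Nodal, Wnt3 and Wnt3a stand in both lists. Those marked on day 2 were Dkk1, Foxf1, Nodal, Wnt3, Fgf17 and Fgf3, and the strongest was Fgf17 (score 116.98), which encodes a fibroblast growth factor. Wnt3 was marked again on day 4 (score 57.32), and Wnt3a, a related ligand gene, on day 6 alone (96.67). Dkk1, which encodes a Wnt antagonist, scored 50.96 on day 2, near the lowest score listed, like Evx1. The other 21 were unmarked at their ends in all 4 lists, as were 51.1% of all genes. Among the 21 were Mesp2, the neighbour of Mesp1, and Tbx6, Msgn1, Lhx1, Cer1 and Gata4.

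**Figure D4:**
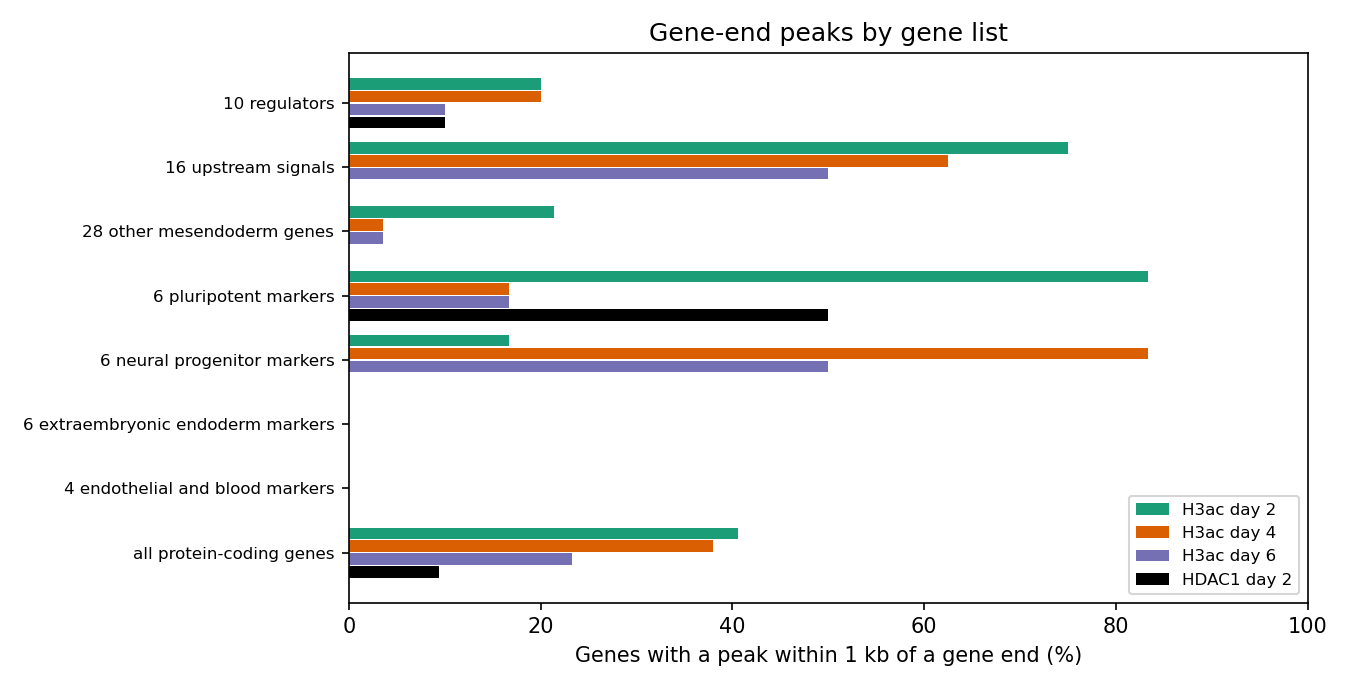
Share of genes (%) with a peak within 1 kb of a gene end, by gene list and peak list, with all protein-coding genes at the bottom. The 10 regulators reach 20%, 20% and 10% for H3ac on days 2, 4 and 6 and 10% for HDAC1, and both lowest marker lists have no bar.

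Markers of the cell types these cells could hold were read in the same way. Of 6 pluripotent markers, 5, 1 and 1 had a gene-end H3ac peak on days 2, 4 and 6, with Sox2 alone on days 4 and 6. Of 6 neural progenitor markers 1, 5 and 3 had one, and of all genes 40.6%, 38% and 23.3%. The top-scoring end peak of Nanog on day 2 (score 52.10) lay at the far end of the gene, as did that of Sox1 on day 4. HDAC1 marked an end of 3 of the pluripotent markers (Pou5f1, Sox2 and Utf1) and 0 of the neural ones, beside 9.4% of all genes. Extraembryonic endoderm, which also uses Foxa2, Sox17 and Hhex, had 0 of 6 markers with a gene-end peak in any list, including Gata4, Gata6 and Sox7. The endothelial and blood markers Cdh5, Pecam1, Tal1 and Gata1, of cells that also express Cxcr4 or Hhex, gave 0 of 4. Of all genes, 51.1% were likewise unmarked at their ends. Peaks in the gene or within 50 kb were listed for some of these markers. For H3ac on days 2, 4 and 6 they were near 3, 2 and 1 of the 6 extraembryonic markers. They were near 3, 2 and 0 of the 4 others, beside 68.3%, 65.6% and 47.4% of all genes. HDAC1 peaks were near 1 of the 6 and 2 of the 4, beside 39.4%. In bulk chromatin a mark in a small share of cells and a weak mark in all cells cannot be told apart. The day 4 and day 6 peaks of Cxcr4 stand beside marked neural progenitor genes, and the part of neural cells in them was not tested.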

How the data were processed

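Per the submitters' processing notes, the aligner was Bowtie 0.12.8 and the build mm10. The authors deposited 1 peak list per ChIP library, with a score for each peak on a scale that no source here explains, and scores therefore only order peaks of the same list. Peak names start with MACS, and how the caller was set, or whether inputs entered, is not given in the sources. Fewer listed peaks can mean fewer reads, and a gene without a peak can still be acetylated or bound.

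Genes came from a RefSeq table of assembly GRCm38.p6. Strand came from RefSeq promoters and was known for 17491 of 21883 protein-coding genes, not for Mixl1 and Sox17. Coordinates are 1-based, distances are differences of coordinates, and peaks shared between lists overlap by at least 1 bp. Groups came from the labels. Placement was tested on simulated data: 600 of 600 planted peaks returned to their class. They were planted at long genes, with gene-end peaks at the lower-coordinate end only. Short genes, the higher-coordinate end and the naming of starts by strand were not covered. Scripts used Python 3.11.15 and pandas 2.3.3.

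The members and gene lists were chosen with earlier results of these data known. By rule, all 10 members were named whatever their values, with list genes that had a gene-end peak and neighbours touched by a distal peak. List genes with no peak, genes near peaks beyond 50 kb, and the counts by gene spacing, by promoter class and between 50 and 100 kb were added after values were seen. A gene of the list of other mesendoderm genes is not reported here.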

Additional observations from a re-analysis of the deposited data

How the results depend on the processing

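Counts over 10 genes are small, and 31 of 86 recomputed values differed from those reported by more than 1.5 times, while 55 did not. With only the higher-scoring 50% of each list, genes with a gene-end peak numbered 0 on day 2 (30.5% of all genes under the same setting), 1 on day 4 (Cxcr4, 26.6%), 0 on day 6 (12.9%) and 0 for HDAC1 (4.92%). Distal peaks then numbered 0 on day 2, near 0 genes (43.8%), and 2 on day 4, near 2 genes (38.2%). With 5286 top-scoring peaks per list, gene-end counts were 0 on day 2 (22.3%) and 1 on day 4 (22.8%), and distal peaks numbered 0 (0 genes, 34.7%) and 1 (1 gene, 34.3%), so day 6 no longer had the smallest gene-end count. With gene ends of 0.5 kb the day 2 count was 1 (Evx1, 36.9%), without Cxcr4. Within 25 kb, distal peaks numbered 2 on day 4, near 2 genes (35.7%), and 0 on day 6, near 0 genes (19.8%). Within 100 kb they numbered 14 on day 2 (6 genes, 69.6%), 14 on day 4 (7 genes, 65.7%), 4 on day 6 (2 genes, 50.2%) and 1 for HDAC1 (1 gene, 45.7%). Without peaks at another gene's end, 1 distal peak near 1 gene was left on day 2 (34.9%), 1 near 1 gene on day 4 (22.3%), and 0 near 0 genes on day 6 (5.97%). Placing peaks by midpoint, gene ends of 2.5 kb and both other overlap rules moved no count by more than 1.5 times. No paired analysis was possible because each target and day had 1 library. Depth is unknown, so an absent peak sets no limit on acetylation or binding.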
